A study of Mus musculus with 60 samples.

Results

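Primary hepatocytes of WT mice (labelled Cre Control) were compared after 2 h and after 0.5 h of hepatocyte growth factor (HGF), and the comparison takes in all probes of the array. Samples were taken by their titles, which gave 3 replicates at each time, each measured on 2 two-colour arrays with exchanged dyes, so that 12 of the 60 arrays of the series enter. A probe was tested where at least 2 of 3 replicates at both times had values in both dyes, which held for 18511 of 21997 probes (84.2%), standing for 12390 named genes. The mice were C57BL males of 9 to 10 weeks. Their hepatocytes were plated with serum, moved to serum-free medium and given recombinant human HGF on the next day, at 50 ng/ml by the culture protocol and at 50 nM by the treatment field. The genotype field of these arrays is empty, and the sources used here do not name the promoter that drives Cre in the control mice. Every array set its sample against pooled RNA of WT hepatocytes. KO hepatocytes (Alb-Cre +/-; Met Fl/Fl, 129SV/C57BL6), in which the albumin promoter drives Cre against a floxed Met by label, were treated for the same times and are used below only beside the WT values. The array does not show that deletion. Its 1 Met probe averaged 0.09 ± 0.18 in KO and -0.06 ± 0.10 in WT at 2 h, and 0.28 ± 0.12 in KO and 0.29 ± 0.10 in WT at 0.5 h (SD, n = 3 each). Whether that probe lies outside the deleted part was not tested, so the KO label is unchecked here.

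HGF is a ligand made mainly by non-parenchymal cells of the liver, and MET is its receptor tyrosine kinase on hepatocytes. Bound MET recruits GRB2 and GAB1 and activates the ERK, PI3 kinase and STAT3 pathways. Growth factors first induce immediate early genes such as Fos, Jun and Egr1, which need no new protein, and then feedback inhibitors, growth factor ligands and genes of metabolism and growth. By time alone, 0.5 h comes early and 2 h later in that sequence. Where these cultures stood in it was not tested. No untreated culture of either time was analysed here, so HGF and time in culture changed together. The arrays of each time also carry their own run of array numbers, so array run and time cannot be told apart. In whole cultures, fewer cells of a type and less RNA per cell cannot be told apart.

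All values below are log2 ratios of the sample to the WT pool after each array was centred on its median, averaged over both dyes of a replicate. A difference is 2 h minus 0.5 h on that scale, and its error is limma's standard error. A probe is called where limma's Benjamini-Hochberg adjusted p was under 0.05. Sample over pool is the likely direction and not a stated one. It rests on the channel layout of the labels and on the number format of the table. All 30 columns with the sample in Cy5 had 3 decimals throughout, and all 30 with it in Cy3 held shorter values. That the Cy3 values were rewritten, and those in Cy5 not, is inferred from this format. Replicates correlated at 0.59 to 0.629 within 2 h and at 0.733 to 0.787 within 0.5 h over probes, against -0.081 to 0.061 between the times. The dyes differed far more. Arrays of 1 dye and 1 time correlated at 0.478 to 0.79, but both arrays of 1 replicate at only -0.013 to 0.148, and the differences measured with the sample in Cy5 and in Cy3 correlated at 0.14 over probes. The 0.5 h arrays with the sample in Cy5 were the widest, with an SD of 0.649 to 0.805, against 0.29 to 0.461 on the other arrays. For this reason the text also says, for lists and for some probes, whether they were apart on both dyes. This means that the 3 arrays of each time did not overlap with the sample in Cy5 nor with it in Cy3, in the same direction. Where nothing is said, this was not always met. F3, Dusp6, Maff, Cebpd and Met were called, but the times overlapped on 1 dye.

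Relative to the median of the array, chaperones of the endoplasmic reticulum, glutathione and acute phase genes were lower at 2 h than at 0.5 h. So were target genes of serum response factor (SRF), YAP and actin and 6 of 20 growth factor feedback genes, while interferon-induced genes were higher. Relative to housekeeping genes, more members were called higher than lower at 2 h for the glutathione, SRF and YAP target and feedback lists. The unfolded protein list kept more lower calls and the interferon list more higher ones. Of 18511 probes, 6181 were called (33.4%), 3143 of them higher at 2 h (17.0%) and 3038 lower (16.4%). The replicates of both times did not overlap for 9563 probes (51.7%). Called probes apart on both dyes were fewer, with 1084 higher at 2 h (5.86%) and 1634 lower (8.83%). With 1 probe per gene, the one with the most measured arrays, 1714 of 12390 genes were called higher at 2 h (13.8%) and 2207 lower (17.8%), and those apart on both dyes were 608 (4.91%) and 1171 (9.45%). These shares are the background for the gene lists below, whose members are counted by that probe. Directions are relative to the median of the array. The list of 18 measured housekeeping genes had a median level of -0.154 to 0.064 in the 2 h replicates and of 0.162 to 0.37 in the 0.5 h replicates, and when arrays were centred on that list the median of all probes moved to 0.41, with 9930 probes called higher and 550 lower. For the lists below, counts of called members under that centring are printed after the main ones. List counts also rest on the likely direction of the Cy3 arrays. With the sign of those arrays turned, the unfolded protein list had 14 lower and 2 higher. Oxidative stress genes then had 7 and 2, acute phase genes 5 and 1, and SRF, YAP and actin targets 5 and 2. Proteasome subunits had 7 and 0, heat shock proteins 3 and 3, and feedback genes 2 and 2. The interferon list then had 9 higher and 3 lower, while chemokines (11 higher, 3 lower) and hepatocyte markers (8 higher, 2 lower) turned to the higher side. A spread shared by all 10 groups left 2118 probes called and the removal of 3 dye profiles 3432.

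**Figure D1:**
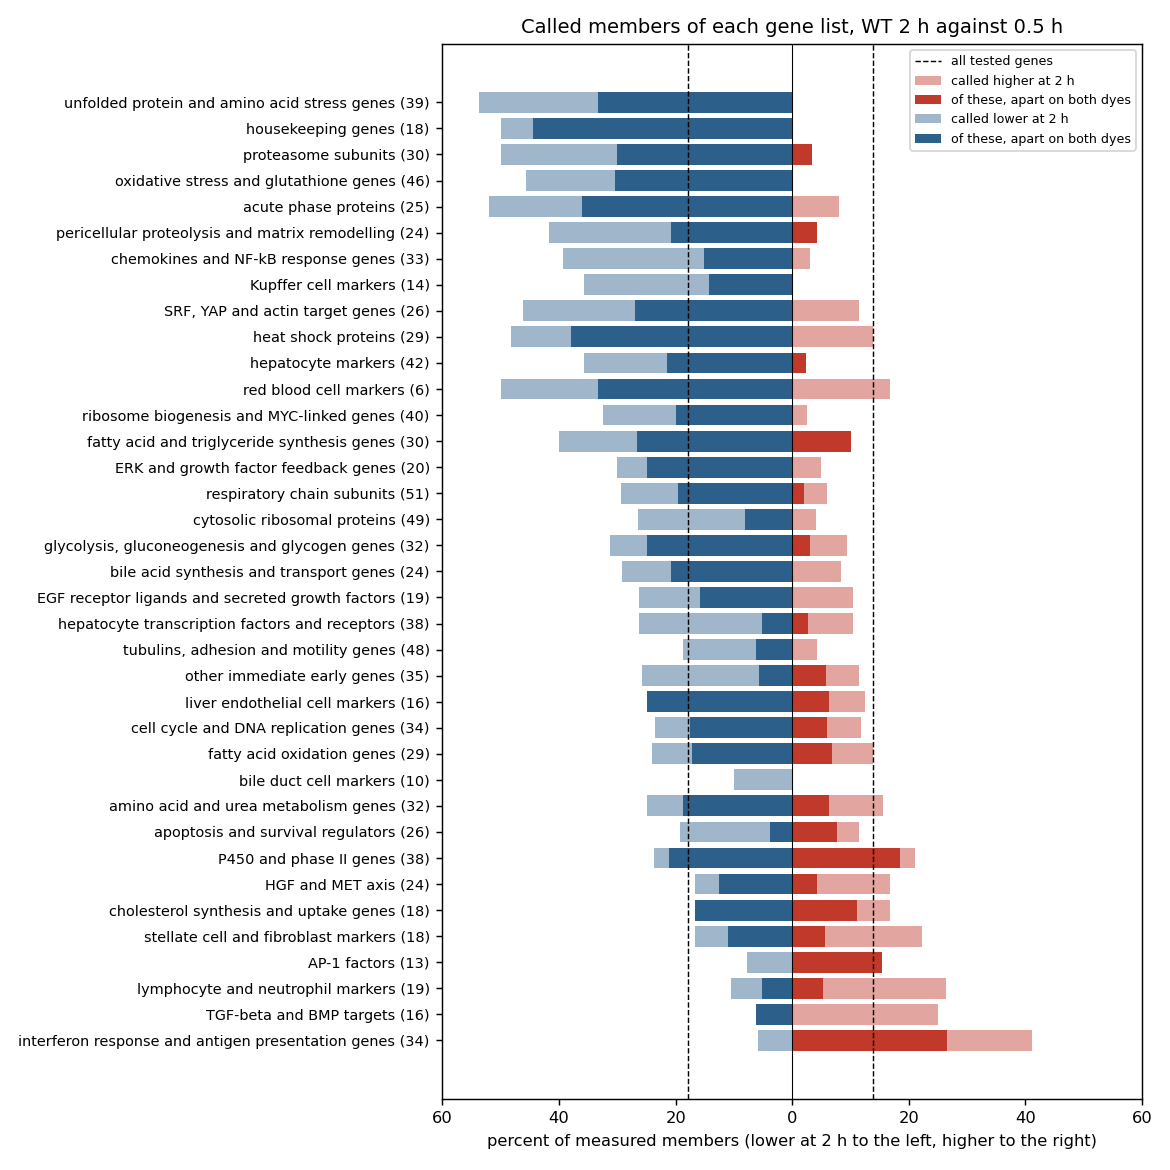
Percent of the measured members of each gene list called lower at 2 h (blue, to the left) or higher (red, to the right), with the number measured in brackets; full colour marks members apart on both dyes and dashed lines the 13.8% higher and 17.8% lower among all 12390 genes. With arrays centred on the median, in the list of unfolded protein and amino acid stress, 21 of 39 were lower and 14 of 34 interferon genes higher; all bars rest on arrays centred on their median.

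The unfolded protein response raises chaperones and folding enzymes of the endoplasmic reticulum when unfolded protein builds up there. In the list for this response and for amino acid stress, 21 of 39 measured genes were lower at 2 h, 13 of them apart on both dyes, and 0 were higher (11 lower and 6 higher with housekeeping centring). The median difference of the list was -0.46, against -0.027 over all genes. Pdia4, a disulfide isomerase, had -0.27, -0.11 and 0.04 in the 2 h replicates, against 1.63, 1.72 and 2.17 in the 0.5 h replicates. It was lower by 1.95 ± 0.15 on the log2 scale (SE, n = 3 each, adjusted p = 0.000124), with -2.41 in Cy5 and -1.50 in Cy3. Pdia6, of the same family, had -0.16, -0.17 and 0.11 at 2 h, against 1.29, 1.26 and 1.40 at 0.5 h. The calcium-binding chaperone Calr had -0.29, -0.09 and -0.10 at 2 h, against 1.15, 1.22 and 1.09 at 0.5 h. Hsp90b1, which encodes GRP94, had -0.23, 0.07 and -0.14 at 2 h, against 1.07, 1.20 and 1.25 at 0.5 h. The 2 h cultures thus lay near the WT pool and the 0.5 h cultures above it for these 4 genes, with no overlap. The lectin chaperone Canx differed less, by -0.77 ± 0.12.

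These chaperones are shown with their promoters because many of them carry the same element. The endoplasmic reticulum stress element (CCAAT, any 9 bases, then CCACG, searched on both strands of the 250 bases before each RefSeq start) was found in 9 of the 36 genes of the list that have a promoter sequence (25%), against 35 of 27025 genes in all (0.13%). The list was drawn up as targets of that response, so this share describes it and tests nothing. Among called members 8 of 20 (40%) had the element, among the others 1 of 16 (6.25%), and this split was not tested. The members with it were Calr, Pdia6, Hsp90b1, Creld2, Hspa5, Canx, Dnajc3 and Ero1b, all called lower, and Syvn1, which was not. Creld2, Hspa5, Dnajc3, Ero1b and Syvn1 are named for the element, after their values were seen. The sequences run 5′ to 3′ on the strand of the gene (RefSeq, GRCm38.p6), and capitals mark the element or, for Calr and the nearer element of Hsp90b1, its reverse complement. Pdia6 lies on the plus strand (chr12:17266339-17266588), Calr on the minus strand (chr8:84846932-84847181) and Hsp90b1 on the minus strand (chr10:86705445-86705694). The element starts 98 bases before the start of Pdia6, 162 before that of Calr, and 212 and 107 before that of Hsp90b1.
Pdia6: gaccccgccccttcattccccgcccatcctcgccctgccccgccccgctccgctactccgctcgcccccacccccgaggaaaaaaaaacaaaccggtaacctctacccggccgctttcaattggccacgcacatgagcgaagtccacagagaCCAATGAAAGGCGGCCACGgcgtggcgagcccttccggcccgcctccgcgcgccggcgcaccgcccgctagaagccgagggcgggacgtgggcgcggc
Calr: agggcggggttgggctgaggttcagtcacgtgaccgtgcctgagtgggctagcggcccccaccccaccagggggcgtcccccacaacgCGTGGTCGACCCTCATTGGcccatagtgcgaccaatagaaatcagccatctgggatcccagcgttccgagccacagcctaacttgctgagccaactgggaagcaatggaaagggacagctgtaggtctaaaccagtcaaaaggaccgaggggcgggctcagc
Hsp90b1: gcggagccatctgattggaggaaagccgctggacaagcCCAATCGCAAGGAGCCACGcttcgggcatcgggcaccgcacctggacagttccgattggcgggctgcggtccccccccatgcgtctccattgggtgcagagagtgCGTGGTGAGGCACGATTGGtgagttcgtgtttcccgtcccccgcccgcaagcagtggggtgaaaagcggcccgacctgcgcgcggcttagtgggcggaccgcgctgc

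Many genes of oxidative stress and of protein upkeep also lay lower at 2 h. Among 46 oxidative stress and glutathione genes, 21 were lower and 0 higher (5 and 11 with housekeeping centring), with a median of -0.30. Examples were Srxn1, a sulfiredoxin (-0.98 ± 0.12), the glutathione synthetase Gss (-0.88 ± 0.11), the mitochondrial peroxiredoxin Prdx3 (-0.88 ± 0.10) and the conjugate exporter Abcc3 (-1.09 ± 0.11), each apart on both dyes. Among 29 heat shock proteins, 14 were lower and 4 higher (1 and 7 with housekeeping centring). They included the mitochondrial chaperones Hspa9 (-0.81 ± 0.13) and Hspd1 (-0.63 ± 0.12). Of 30 proteasome subunits, 15 were lower and 1 higher (0 and 5 with housekeeping centring), with Psmb5 at -0.70 ± 0.12 and Psmd1, the exception, at 0.78 ± 0.11. For all 3 of these lists the balance of calls thus turned with the centring.

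Feedback genes of growth factor signalling were lower at 2 h in 6 of 20 cases, 5 of them apart on both dyes, and higher in 1 (4 and 9 with housekeeping centring). Over all genes 17.8% were lower and 13.8% higher. Whether a list of 20 genes with these counts departs from those shares was not tested. Errfi1, an inhibitor of the EGF receptor, had 0.42, 0.24 and 0.34 at 2 h, against 1.82, 2.29 and 2.20 at 0.5 h. It was lower by 1.77 ± 0.14, close to -1.96 in Cy5 and -1.58 in Cy3. Lrig1, which promotes the decay of EGF receptors, had 0.01, 0.28 and 0.30 at 2 h, against 1.05, 1.73 and 1.93 at 0.5 h. The G protein regulator Rgs16 differed by -1.17 ± 0.14 (n = 3 and 2), the cytokine signalling suppressor Socs2 by -0.94 ± 0.15 and the ERK phosphatase Dusp6 by -0.51 ± 0.11. Spry2, a Sprouty inhibitor, was the member called higher, by 0.54 ± 0.13, which came from the Cy5 arrays (0.98) and hardly from the Cy3 arrays (0.10). The stress-induced phosphatase Dusp1 differed by 0.08 ± 0.19 and was not called.

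Among 19 ligands of the EGF receptor and other secreted growth factors, 5 were lower at 2 h (26.3%) and 2 higher (10.5%). The shares over all genes were 17.8% and 13.8%. With housekeeping centring 2 were lower and 6 higher. Hbegf, heparin-binding EGF, had 0.35 and 0.16 in the 2 measured replicates at 2 h, against 1.53, 1.68 and 1.70 at 0.5 h. It was lower by 1.39 ± 0.13 (adjusted p = 0.000278), with -0.67 in Cy5 and -2.09 in Cy3, and the times did not overlap on either dye. Pdgfa, a chain of platelet-derived growth factor, differed by -0.62 ± 0.12. Ereg, epiregulin, was called at -1.57 ± 0.46, but its 0.5 h replicates spread over 1.20, 2.48 and 0.52, and the difference was 0.28 in Cy5 against -3.41 in Cy3.

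**Figure D2:**
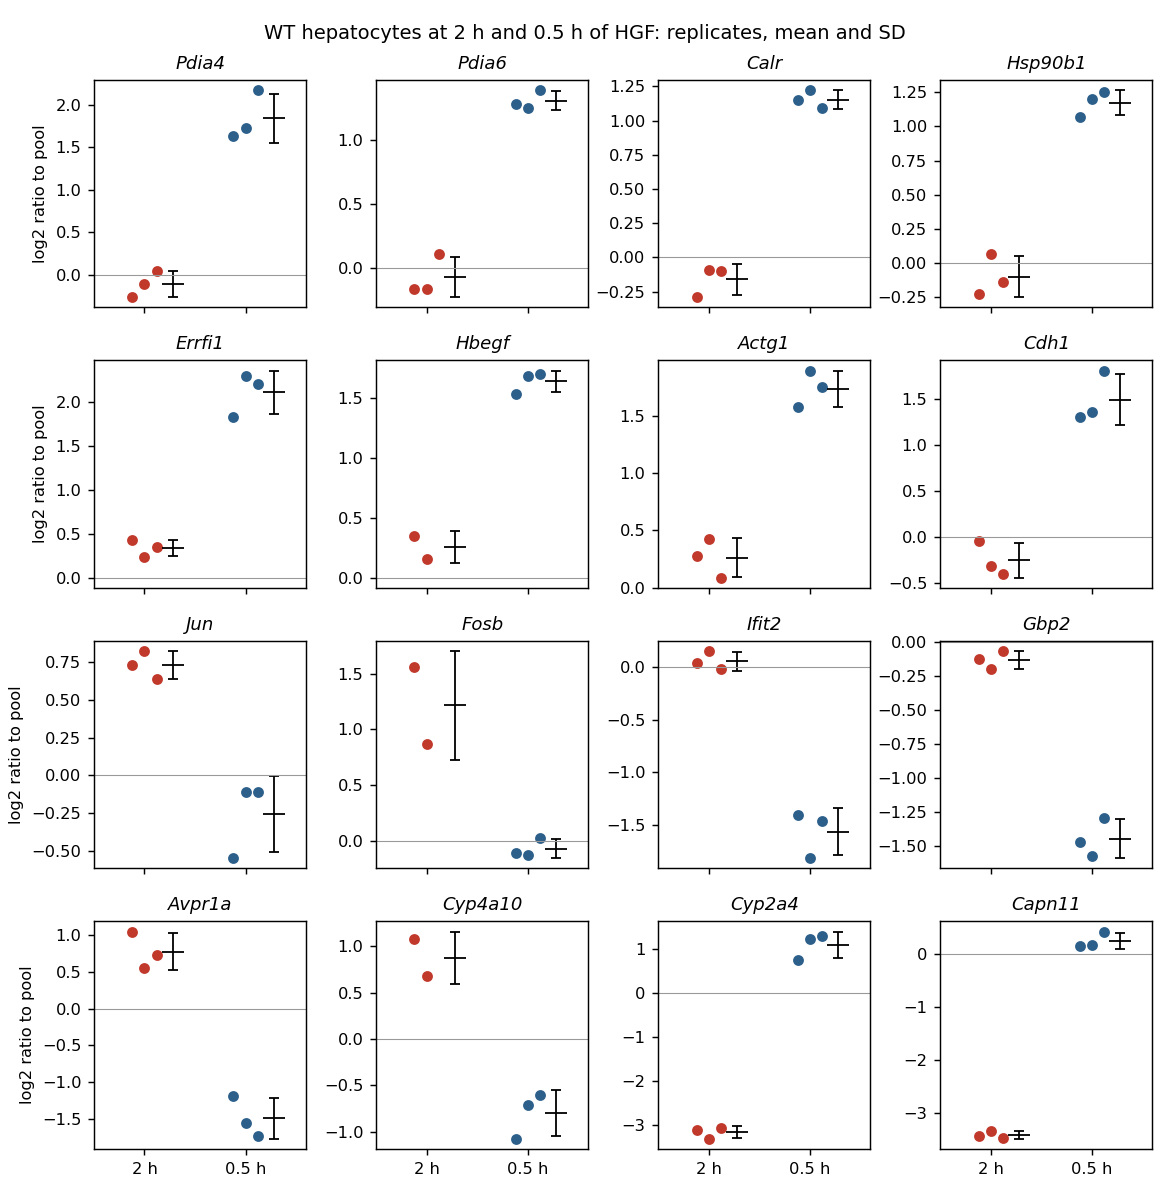
log2 ratio to the WT pool of 16 genes in each replicate at 2 h (red) and 0.5 h (blue). The mean and SD stand beside the points, and each gene has its own axis. Hbegf, Fosb and Cyp4a10 have 2 replicates measured on both dyes at 2 h. The times do not overlap for any of the 16, which were chosen with their values known. Among all tested probes, 51.7% do not overlap. Cyp2a4 and Capn11 reach below -3 at 2 h.

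Immediate early genes did not move together. Of 13 AP-1 factors, 2 were higher at 2 h (15.4%), 1 was lower (7.69%) and 10 were not called (7 higher and 0 lower with housekeeping centring). Over all genes 13.8% were higher and 17.8% lower, so these counts are no result about the list as a whole. Jun had 0.73, 0.82 and 0.64 at 2 h, against -0.55, -0.11 and -0.11 at 0.5 h. It was higher by 0.99 ± 0.14 (adjusted p = 0.00105), on both dyes. Fosb had 1.56 and 0.87 in its 2 measured replicates at 2 h, against -0.11, -0.13 and 0.02 at 0.5 h, a difference of 1.29 ± 0.19. Of the 2 Fos probes, 1 was called at 0.69 ± 0.18 and the other was not at 0.08 ± 0.13, so Fos is uncertain. Maff, a small MAF factor, was lower by 0.67 ± 0.15.

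Of 35 other immediate early genes, 4 were higher (11.4%) and 9 lower (25.7%) at 2 h (12 and 0 with housekeeping centring). The shares over all genes were 13.8% and 17.8%. The nuclear receptor Nr4a2 was higher by 0.81 ± 0.12 on both dyes, and the TGF-beta inducible factor Klf10 differed by -0.50 ± 0.11. Nfil3, a bZIP repressor, was called at 0.67 ± 0.10 by 1 probe and not called at -0.04 ± 0.13 by the other. Egr1 had 0.31, 1.23 and 1.09 at 2 h, against 1.01, 1.01 and 0.94 at 0.5 h, so the times overlapped. Its difference was -0.11 ± 0.21 over both dyes, with 0.64 in Cy5 and -0.86 in Cy3. The Cy3 difference rests mainly on replicate 1 at 2 h. The Cy3 values were -1.01, 1.16 and 0.92 at 2 h, against 1.29, 1.01 and 1.34 at 0.5 h. Ier2 (-0.26 ± 0.22), Junb (0.10 ± 0.14), Atf3 (0.12 ± 0.15) and Myc (-0.21 ± 0.17) were likewise not called. Across a fixed panel of 35 early and MET-linked genes, 32 probes were tested, of which 4 were called higher, 8 lower and 20 not, the last with differences from -0.32 to 0.35.

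Of 24 measured members of the HGF and MET axis, 4 were higher at 2 h (16.7%) and 4 lower (16.7%), which is near the background of 13.8% and 17.8% and is no result about the axis as a whole (12 and 2 with housekeeping centring). The HGF activator Hgfac, a secreted protease, had -1.11, -1.01 and -1.25 at 2 h, against -0.17, -0.16 and 0.04 at 0.5 h, and hepsin (Hpn), a membrane protease that can also activate HGF, was lower by 0.85 ± 0.11 (n = 2 and 3). The adaptor Grb2 was lower by 0.44 ± 0.11 and the docking protein Gab1 higher by 0.33 ± 0.10. Met, the receptor itself, had -0.17, 0.04 and -0.04 at 2 h, against 0.25, 0.21 and 0.41 at 0.5 h. Its difference of -0.34 ± 0.11 was called at adjusted p = 0.0352 and became 0.06 with housekeeping centring.

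In the list of SRF, YAP and actin target genes, 12 of 26 were lower at 2 h and 3 higher (6 and 7 with housekeeping centring). Actg1, cytoplasmic gamma actin, had 0.27, 0.43 and 0.09 at 2 h, against 1.58, 1.89 and 1.75 at 0.5 h, or -1.48 ± 0.13 with -1.49 in Cy5 and -1.46 in Cy3. A second Actg1 probe gave -0.53 ± 0.11, with -1.43 in Cy5 and 0.37 in Cy3. Beta actin (Actb) differed by -0.95 ± 0.10, the actin-binding Tagln2 by -1.01 ± 0.11 and the non-muscle myosin Myh9 by -1.34 ± 0.14. Actb and Actg1 are close in sequence, so their probes may share signal. In a separate list of tubulins, adhesion and motility genes, 9 of 48 measured were lower at 2 h (18.8%) and 2 higher (4.17%). Its counts with housekeeping centring are not given here. Over all genes 17.8% were lower and 13.8% higher, so its lower calls are no result about that list. Its member Cdh1, E-cadherin, had -0.04, -0.31 and -0.40 at 2 h, against 1.31, 1.36 and 1.81 at 0.5 h. Its difference was larger in Cy3 (-2.67) than in Cy5 (-0.82), apart on both.

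Of 24 genes of pericellular proteolysis and matrix remodelling, 10 were lower and 1 higher at 2 h (4 and 8 with housekeeping centring). F3, tissue factor, had 0.78, 0.76 and 0.50 at 2 h, against 1.84, 2.93 and 2.87 at 0.5 h, the metalloprotease Mmp7 differed by -1.21 ± 0.11, and the lysosomal protease Ctsl by -0.83 ± 0.12. Of 33 chemokines and NF-kB response genes, 13 were lower and 1 higher (3 and 8 with housekeeping centring). The chemokine Ccl9 had -1.02, -1.71 and -1.57 at 2 h, against 0.09, 0.39 and 0.40 at 0.5 h. Vcam1, a leukocyte adhesion receptor, and Tnfaip2 were lower by 1.20 ± 0.16 and 1.26 ± 0.12. The ornithine decarboxylase Odc1, rate-limiting in polyamine synthesis, was lower by 0.87 ± 0.15, and Ppan, a ribosome assembly factor, by 1.01 ± 0.14. They were among 13 lower and 1 higher of 40 ribosome biogenesis and MYC-linked genes (2 and 13 with housekeeping centring).

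Acute phase proteins are secreted by hepatocytes in inflammation. Of 25 measured, 13 were lower at 2 h, 9 of them apart on both dyes, and 2 were higher (8 and 7 with housekeeping centring), with a median of -0.40. Orm2, an orosomucoid, had -0.26, -0.30 and -0.34 at 2 h, against 1.18, 0.81 and 1.13 at 0.5 h. The related Orm1 differed by -0.97 ± 0.10 and the protease inhibitor Serpina3n by -1.43 ± 0.17, and both belong to families of close copies. Complement factor I (Cfi) differed by -1.87 ± 0.12, with -0.50 in Cy5 and -3.24 in Cy3. Cebpd, a transcription factor of this response, was lower by 0.76 ± 0.17. Among 42 hepatocyte markers, 15 were lower and 1 higher (5 and 14 with housekeeping centring), such as the secreted proteins F12 (-0.98 ± 0.10) and Fetub (-1.21 ± 0.14). Alb, albumin, differed by -0.06 ± 0.10. Since every sample was set against a pool of hepatocytes, these ratios do not give a gene's abundance and cannot check the cell type itself.

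Interferon response and antigen presentation genes moved the other way. Of 34 measured, 14 were higher at 2 h, 9 of them apart on both dyes, and 2 were lower (29 and 0 with housekeeping centring), and their median difference was 0.29. Ifit2, an inhibitor of translation of viral RNA, had 0.04, 0.15 and -0.02 at 2 h, against -1.41, -1.82 and -1.47 at 0.5 h. It was higher by 1.62 ± 0.13 (adjusted p = 0.000127), with 1.15 in Cy5 and 2.10 in Cy3. The guanylate-binding protein Gbp2 had -0.13, -0.20 and -0.07 at 2 h, against -1.47, -1.58 and -1.29 at 0.5 h. Its relative Gbp3 had -0.31, 0.27 and 0.02 at 2 h, against -1.87 and -1.97 in the 2 measured replicates at 0.5 h. Iigp1, an immunity-related GTPase, had -0.86, -0.96 and -0.90 at 2 h, against -2.38, -2.22 and -1.94 at 0.5 h. For Ifit2 and the Gbp genes the 2 h cultures were again at the level of the pool, but here the 0.5 h cultures lay below it. GTPases of these families are similar in sequence, and probes may read more than 1 of them.

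The promoters of Gbp2 and Gbp3 are shown for the repeat that interferon regulatory factors bind. The repeat (GAAA, any 2 bases, then GAAA, on both strands of the same 250 bases) occurred in 11 of 28 interferon genes with a promoter sequence (39.3%), against 936 of 27025 genes in all (3.46%). Among members called higher 4 of 11 (36.4%) had it, among those not called 7 of 17 (41.2%), and this split was not tested. Both genes lie on the plus strand (Gbp2 chr3:142620413-142620662, Gbp3 chr3:142559794-142560043), and capitals mark the reverse complement of the repeat, which overlaps with a further copy in Gbp3.
Gbp2: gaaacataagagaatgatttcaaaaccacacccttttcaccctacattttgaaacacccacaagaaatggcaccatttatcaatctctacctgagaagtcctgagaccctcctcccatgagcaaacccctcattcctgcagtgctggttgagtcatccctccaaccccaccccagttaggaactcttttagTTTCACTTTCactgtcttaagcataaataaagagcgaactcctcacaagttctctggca
Gbp3: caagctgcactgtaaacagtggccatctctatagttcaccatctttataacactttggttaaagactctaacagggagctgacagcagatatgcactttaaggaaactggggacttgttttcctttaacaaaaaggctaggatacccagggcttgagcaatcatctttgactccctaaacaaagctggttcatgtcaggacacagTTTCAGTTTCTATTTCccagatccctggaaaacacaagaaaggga

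Metabolic genes changed in both directions. Of 38 P450 and phase II genes, 8 were higher (21.1%) and 9 lower (23.7%) at 2 h (21 and 2 with housekeeping centring). The shares over all genes were 13.8% and 17.8%. The fatty acid hydroxylase Cyp4a10 had 1.07 and 0.68 in the 2 replicates measured on both dyes at 2 h. At 0.5 h it had -1.07, -0.71 and -0.61. Replicate 3 at 2 h had only a Cy3 value, -0.44, against 0.83 and 0.82 in the other 2 h Cy3 arrays. The 0.5 h Cy3 values were -0.67, -0.55 and -0.81. Cyp3a25 was higher by 1.47 ± 0.13 (n = 2 and 3) and Nr1i3, the xenobiotic receptor CAR, by 1.19 ± 0.16, while the monooxygenase Fmo1 was lower by 1.17 ± 0.11 and Cyp27a1, an enzyme of bile acid synthesis, by 1.25 ± 0.16. Baat, which conjugates bile acids, was lower by 1.03 ± 0.14. Cytochrome P450 subfamilies hold close copies, so these probes may read relatives.

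Of 30 genes of fatty acid and triglyceride synthesis, 12 were lower and 3 higher at 2 h (5 and 9 with housekeeping centring). Scd1, the stearoyl-CoA desaturase, had -0.92, -0.72 and -0.57 at 2 h, against 0.79, 0.42 and 0.94 at 0.5 h. The triglyceride enzyme Dgat2 was lower by 1.15 ± 0.12 and the lipase inhibitor Angptl4 by 1.38 ± 0.18. Fasn, fatty acid synthase, had 0.15, -0.07 and 0.01 at 2 h, against -1.18, -1.17 and -0.91 at 0.5 h, opposite to Scd1. The 3 probes of Acaca, acetyl-CoA carboxylase, gave -1.56 ± 0.17, -1.03 ± 0.17 and -0.04 ± 0.13, the last not called. The fatty acid carrier Fabp1 had 1.48, 1.31 and 1.26 at 2 h, against -0.34, 0.03 and 0.25 at 0.5 h. Tdo2, which opens tryptophan breakdown, was higher by 1.44 ± 0.22, while the glucokinase regulator Gckr was lower by 1.52 ± 0.10 and the glycogen branching enzyme Gbe1 by 0.93 ± 0.10.

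The 2 lowest differences belonged to Cyp2a4, a steroid hydroxylase, and Capn11, a calpain known mainly from testis. Cyp2a4 had -3.11, -3.30 and -3.06 at 2 h, against 0.75, 1.24 and 1.31 at 0.5 h, a difference of -4.25 ± 0.15 (19.1-fold lower, adjusted p = 1.17e-06). Every array agreed, since the Cy5 values were -2.66, -2.33 and -2.40 at 2 h, against 0.02, 0.32 and 0.54 at 0.5 h, and the Cy3 values were -3.56, -4.28 and -3.71, against 1.49, 2.15 and 2.09. Cyp2a5 is nearly identical to Cyp2a4 in sequence, but its own probe differed by only -0.17 (adjusted p = 0.354). Capn11 had -3.43, -3.33 and -3.47 at 2 h, against 0.16, 0.17 and 0.43 at 0.5 h, a difference of -3.66 ± 0.11 (12.7-fold lower, adjusted p = 4.82e-07). Over the 5 WT groups in order of time, the mean of Cyp2a4 was 0.15 before HGF, with an SD of 0.96. It was then 1.10 after 0.5 h, -3.16 after 2 h, -0.97 after 12 h and -2.46 after 24 h. Capn11 averaged 0.06, 0.25, -3.41, -0.84 and -1.70 over the same groups, the last with 2 replicates and an SD of 1.5. In the 5 KO groups the means of both genes lay between -0.16 and 0.10. The WT means of both genes at the 3 later times were thus below those of the earlier 2, and 2 h was the lowest. Whether the same mice gave the cultures of different times is not stated in the labels.

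**Figure D3:**
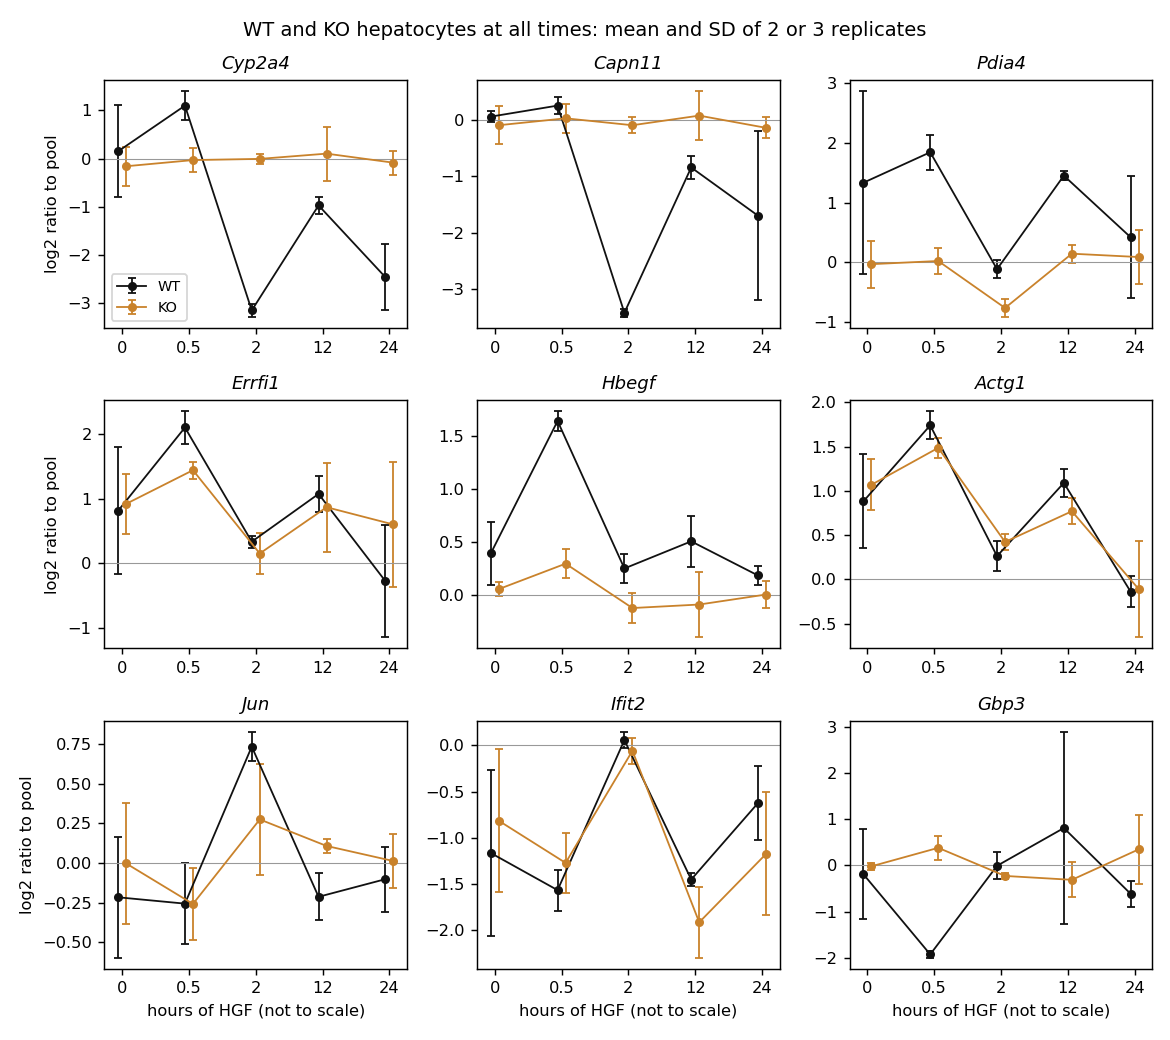
Mean and SD of the log2 ratio to the WT pool at 0, 0.5, 2, 12 and 24 h of HGF in WT (black) and KO (orange) hepatocytes for 9 genes, each with 2 or 3 replicates a group and its own axis. In WT, Errfi1, Hbegf and Actg1 stand higher at 0.5 h than at 2 h and Jun and Ifit2 the other way, while the WT means of Cyp2a4 and Capn11 are below 0 from 2 h on and their KO means lie near 0.

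In the same order of the 5 times, the WT means of Errfi1 were 0.82, 2.11, 0.34, 1.08 and -0.28, and those of Hbegf were 0.39, 1.64, 0.25, 0.51 and 0.19. Pdia4 was at 1.33, 1.84, -0.11, 1.45 and 0.42, so that its 2 h mean was the lowest of the 5. Its SD was 1.53 before HGF and 1.02 after 24 h, where the lowest replicates were at -0.40 and -0.75, below that mean. The SD before HGF was also wide for Errfi1 (0.98) and Ifit2 (0.90). Jun was highest at 2 h, with -0.22, -0.26, 0.73, -0.21 and -0.10, and so was Ifit2, with -1.17, -1.57, 0.06, -1.45 and -0.62. The untreated, 12 h and 24 h cultures were run on other sets of arrays than those of 0.5 h and 2 h, so in these orders, those of Cyp2a4 and Capn11 included, array set and time cannot be told apart, and they were not tested.

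The largest differences were often uneven between the dyes. Of the 15 highest called genes, 11 were apart on both dyes, but 10 had a Cy5 difference over 3 times that in Cy3, and their medians were 3.41 in Cy5 and 0.60 in Cy3. Of the 15 lowest, 10 were apart on both, 2 had a Cy5 difference over 3 times that in Cy3 and 5 the reverse, with medians of -1.27 in Cy5 and -2.46 in Cy3. Avpr1a, the hepatocyte vasopressin receptor, was even, with 1.04, 0.55 and 0.72 at 2 h, against -1.18, -1.55 and -1.72 at 0.5 h, and with differences of 2.45 in Cy5 and 2.06 in Cy3. Myocd, a muscle coactivator, topped the list at 2.62 ± 0.40 with 3.89 in Cy5 and 1.35 in Cy3. The olfactory receptor Olfr154 (2.55 ± 0.61) had 4.61 in Cy5 and 0.49 in Cy3, and Rgs10 (2.20 ± 0.65) had 4.28 and 0.17. On the lower side Vamp1, a vesicle protein, had -4.45 in Cy5 and 0.12 in Cy3, and its second probe was not called at 0.09 ± 0.11. For single genes the dyes were compared by this split. Over all tested probes, 3 profiles of the difference between the dyes, drawn from all 10 groups, were also computed. Their squared correlation with the 2 h minus 0.5 h difference was 0.418. What lies behind that overlap was not tested.

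**Figure D4:**
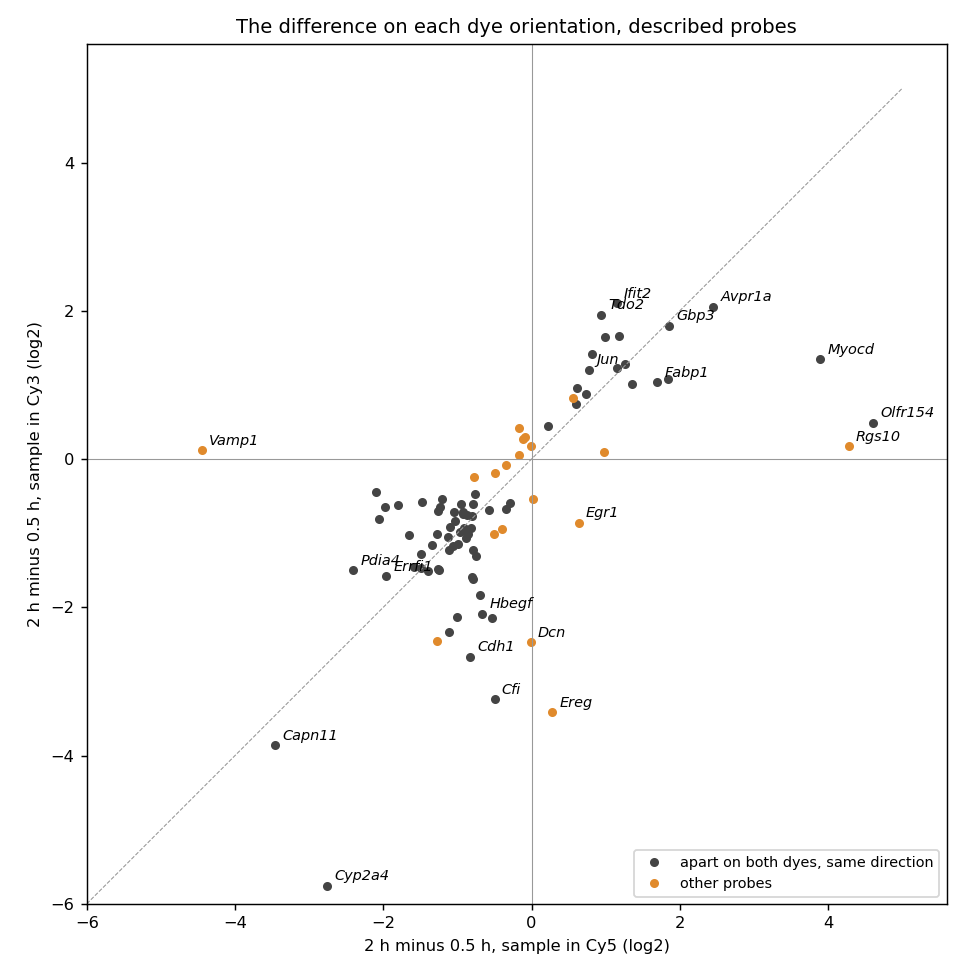
Difference 2 h minus 0.5 h (log2) of each described probe with the sample in Cy5 (horizontal) and in Cy3 (vertical); dark points are apart on both dyes in the same direction, and the dashed line marks equal differences. Capn11, Avpr1a and Gbp3 lie near the line, Olfr154, Rgs10 and Vamp1 near the horizontal axis, and Ereg, Dcn and Cfi near or along the vertical axis.

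Gapdh has 218 tested probes, and no other named gene has over 25. Whether these are repeated or control spots is not stated in the annotation, so they may be many readings of 1 probe. Of these, 207, which are among the 3038 lower probes, were called lower at 2 h, 3 higher and 8 not, with a median difference of -0.72, quartiles of -0.79 and -0.64 and extremes of -1.26 and 0.95. The median was -0.90 in Cy5 and -0.54 in Cy3. Among the 18 housekeeping genes, 9 were lower and 0 higher (5 and 3 with housekeeping centring). Markers of other liver cells moved as follows, and their part in the results was not tested. Over all genes, 17.8% were called lower at 2 h and 13.8% higher. Of 14 Kupffer cell markers, 5 were lower and 0 higher (1 and 2 with housekeeping centring), with C1qb at -1.07 ± 0.16 and a median level of -0.248 at 2 h and 0.064 at 0.5 h. Of 16 endothelial markers, 4 were lower and 2 higher (0 and 6), with a median difference of -0.15. Cdh5, among the lower ones, was at -0.78 ± 0.15. Of 18 stellate cell and fibroblast markers, 3 were lower and 4 higher (2 and 13), with a median difference of 0.20. Dcn, among the lower ones and against that median, was at -1.20 ± 0.18 (-0.01 in Cy5, -2.47 in Cy3). Of 10 bile duct markers 1 was lower and 0 higher (1 and 4), of 19 lymphocyte and neutrophil markers 2 were lower and 5 higher (0 and 12), and of 6 red blood cell markers 3 were lower and 1 higher (1 and 3).

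The same step in the hepatocytes labelled KO, whose Met probe was no lower than in WT, was set against the WT step. The difference between the steps was called for 2054 of 16795 probes (12.2%), 994 of them positive (5.92%) and 1060 negative (6.31%), and for 1363 of 11358 genes (12.0%). Only 34 probes were called from the Cy5 arrays alone and 5661 from the Cy3 arrays alone, 50 with a spread shared by all 10 groups, and 1153 without KO 2 h replicate 2. Genotype and strain changed together here, and 1 KO 2 h replicate was run with another set of arrays. Errfi1 and Actg1 were also lower in KO, by 1.29 and 1.06, and Scd1 by 1.63, and their steps were not called different (adjusted p = 0.170, 0.115 and 0.691), which does not show that they are alike. Hbegf fell by 1.39 in WT, against a KO difference of -0.42 (adjusted p = 0.00393), and Pdia4 by 1.95, against -0.78 (adjusted p = 0.00422). A step difference was called for 16 of 38 tested members of the unfolded protein list, 13 of 24 acute phase genes, 16 of 42 hepatocyte markers, 11 of 32 interferon genes and 9 of 29 chemokines and NF-kB response genes. The median step of the acute phase list was -0.40 in WT and 0.23 in KO, while that of the interferon list was 0.29 in WT and 0.72 in KO.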

How the data were processed

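Values were deposited as normalized log ratios, 1 per probe and array, with the log2 scale read from the values; the authors' normalization and the channel on top are not given in the sources used here. Each array was centred on its median, the Cy5 and Cy3 arrays of a replicate were averaged, and times were compared with limma 3.58.1 in R 4.3.3, two-sided, with Benjamini-Hochberg adjustment over all tested probes. Of 21997 probes, 16076 carry 1 gene symbol, 288 several and 5633 none. The fit was tested on simulated data. Same-numbered replicates did not deviate together (correlations of -0.060, -0.051 and 0.029), so the main fit has no replicate block. Named genes are the 15 highest and 15 lowest called genes, a fixed panel and up to 4 genes of smallest p per list; the choice among them was made with the values known. The members and lists were chosen with earlier results of these data known. The labels name triplicate cultures of 3 mice without linking them to replicate numbers, so p-values measure the spread between these samples. The number of arrays limits the precision. Housekeeping centring was chosen after seeing the data.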

Additional observations from a re-analysis of the deposited data

Results flagged for a closer look

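The 2 h minus 0.5 h difference was tested between WT and KO hepatocytes with limma. Of 89 described probes with a tested step difference, 38 had a called one, against 12.2% of all tested probes. Many described genes were chosen for large or low-p WT steps, which enter this difference, so their share tests nothing. With Cy5 arrays alone, only 34 probes of the whole array were called. The number after each gene is the WT step minus the KO step on the log2 scale. It was negative for Cyp2a4 (-4.28), Capn11 (-3.54), Cfi (-2.35), Vamp1 (-2.03), Serpina3n (-1.74), Dcn (-1.63), Cdh1 (-1.45), Angptl4 (-1.38), Fetub (-1.33), C1qb (-1.25), Pdia4 (-1.17), Orm1 (-1.11), Vcam1 (-1.11), Cebpd (-1.05), Myh9 (-1.02) and Hbegf (-0.97). It was also negative, and smaller in size, for Orm2 (-0.93), Ctsl (-0.93), Pdia6 (-0.93), Hgfac (-0.91), Cdh5 (-0.87), F12 (-0.84), Cyp27a1 (-0.82), Fmo1 (-0.77), Mmp7 (-0.77), Rgs16 (-0.74), Dgat2 (-0.73), Gckr (-0.72), Hsp90b1 (-0.68), Hpn (-0.68), Calr (-0.68) and Canx (-0.54). It was positive for Fasn (0.68), Spry2 (1.03), Cyp3a25 (1.29), Fosb (1.6), Avpr1a (1.61) and Gbp3 (2.52). The step differences of Cyp2a4 and Capn11 had adjusted p = 1.46e-07 each. Gbp3 moved in opposite directions, with a step of 1.91 in WT and of -0.61 in KO.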

How the results depend on the processing

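The 6181 called probes of the 2 h against 0.5 h comparison became 2118 (30.7% of them higher at 2 h) with a spread shared by all 10 groups, 3432 with 3 dye profiles regressed out and 10480 (94.8% higher) with arrays centred on housekeeping genes, against 50.8% higher in the main result. Over probes measured in all 10 groups 5022 were called, 40% of them higher, and with group weights 5878, 39.5% higher. Leaving out 1 replicate gave 4160 to 5527 calls, and the replicate block 5644. The 2054 calls of the step difference became 50 with the shared spread, 34 with Cy5 arrays only, 5661 with Cy3 arrays only, 3568 with housekeeping centring and 1684 with the replicate block, and 1153 to 2090 without 1 replicate; without WT 2 h replicate 1 it was 1270 and without WT 0.5 h replicate 3 it was 1272. Of 84 described probes called, 71 kept their call and direction with Cy5 arrays only, 76 with Cy3 arrays only and 73 with housekeeping centring. Signs turned for Ereg (0.28) and Egr1 (0.64) with Cy5 arrays only, Vamp1 (0.12) with Cy3 arrays only, Spry2 (-0.10) with dye profiles regressed out, and Met (0.0565) and Alb (0.34) with housekeeping centring. No label settles the direction of the Cy3 arrays; with their sign turned 4456 probes are called, 69.1% of the main calls keep their direction, and of the 84 described calls 8 keep call and direction, 31 are no longer called and 45 reverse. These differences change sign: Cyp2a4 (1.5), Capn11 (0.20), Lrig1 (0.13), Rgs16 (0.0092), Socs2 (0.077), Hbegf (0.72), Ereg (1.85), Myh9 (0.81), Tagln2 (0.22), F3 (0.59), Cdh1 (0.92), Fos (-0.14), Fosb (-0.14), Jun (-0.21), Nr4a2 (-0.067), Nfil3 (-0.077), Klf10 (0.16), Ifit2 (-0.47), Gbp2 (-0.33), Iigp1 (-0.015), Orm1 (0.0098), Cyp3a25 (-0.29), Fmo1 (0.060), Scd1 (0.056), Angptl4 (0.11), Fasn (-0.30), Acaca (0.57), Gapdh (0.0072), Tdo2 (-0.51), Hgfac (0.28), Gab1 (-0.11), Grb2 (0.15), Odc1 (0.053), Psmd1 (-0.17), Hspd1 (0.057), Ccl9 (0.61), Vcam1 (0.40), Tnfaip2 (0.57), C1qb (0.074), Dcn (1.19), Cebpd (0.25), Maff (0.27), F12 (0.095), Fetub (0.41) and Cfi (1.37). The causes were not tested.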

Other observations

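Further gene lists were counted in the same way. Of 51 respiratory chain subunits, 15 were lower at 2 h and 3 higher, and of 49 cytosolic ribosomal proteins, 13 and 2 (2 and 13, and 0 and 12, with housekeeping centring). Of 34 cell cycle and DNA replication genes, 8 were lower (23.5%) and 4 higher (11.8%), or 1 and 15 with housekeeping centring. Of 26 apoptosis and survival regulators, 5 were lower (19.2%) and 3 higher (11.5%), or 0 and 13 with housekeeping centring. Over all genes 17.8% were lower and 13.8% higher, so the counts of these lists are no result about them. TGF-beta and BMP targets had 1 lower and 4 higher of 16 (0 and 11 with housekeeping centring), none of the higher ones apart on both dyes.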
